A study of Mus musculus with 12 samples.

Results

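Mouse dorsal root ganglion (DRG) cells in primary culture that received a mix of antisense oligonucleotides (ASOs) against GI-SINE RNA were compared with untransfected cultures of the same mice. The comparison rests on 8 of the 12 libraries of the study, 4 with the mix and 4 untransfected, and on the 16831 of 48795 genes whose counts were high enough to test. Every culture had the C57/Bl6 wt genotype. In each of 4 repeats the culture from the ganglia of 1 mouse was split, and its portions received the GI-SINE ASO mix at 50 nM, a control ASO at 50 nM or no transfection. The untransfected cultures received neither an ASO nor a transfection, so the comparison holds the whole change from the undisturbed culture. The control ASO libraries are used here only to divide that change into a step from no transfection to control ASO and a step from control ASO to mix. The ages of the mice, the times of exposure, the reagent and the ASO sequences were not given in the sources used here.

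The DRG holds the cell bodies of sensory neurons, each wrapped by satellite glia, together with Schwann cells, fibroblasts, mural and endothelial cells and macrophages. In a culture of the whole ganglion the neurons no longer divide, whereas glia and fibroblasts can, and these cells lay down the collagens and laminins on which axons extend. B2 elements are short interspersed repeats of the mouse genome transcribed by RNA polymerase III, and the title of the study calls a set of their transcripts growth inducing. An ASO is a short synthetic strand that pairs with a chosen RNA. The counts are per annotated gene, and the level of GI-SINE RNA was not analysed here.

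Total counts per library were 16416459 to 21250125 with the mix and 16971091 to 22668448 without transfection, and 3 loci that collect ribosomal RNA reads (Gm23935, Gm42418 and Gm26917) took 15.7% to 19.5% of each of these 8 libraries. Principal component 1 of log2 CPM (counts scaled to library size) held 57.3% of the variance of all 12 libraries, and untransfected libraries scored -58.2 to -44.7. Mix libraries scored 64.4 to 72.3 for mice 1 to 3 and 25.9 for mouse 4. The 3 libraries from mouse 4 also stood apart on the third component (9.87%), and values of this mouse are given beside many results. Where none is given, agreement of mouse 4 is not implied. The pan-neuronal markers were all detected, as were glial, fibroblast, mural, endothelial and macrophage markers. Markers of other leukocytes were nearly absent, with 11 of 14 too low to test.

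CPM values below are given for mice 1 to 4 in that order, after trimmed-mean (TMM) scaling. Log2 fold changes are mix over untransfected unless another pair is named, with the standard error (SE) of a fit in which each mouse is its own control (4 mice). A gene was called higher or lower at a Benjamini-Hochberg adjusted p under 0.05 over all tested genes. A called change is marked as marginal where the call was lost when 1 of the mice was left out. A second value is given where a call was lost once the trend of every library with transcript length and GC content was removed (trend removal). Where a list had 5 or fewer exceptions they are named, and those outside the naming rule were chosen after their values were seen.

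With the mix, 10307 of 16831 genes differed from the untransfected culture (61.2%), 5072 higher (30.1%) and 5235 lower (31.1%). These shares are the background for the counts of every gene list below, and a list near them is not set apart by its counts. The median log2 fold change of all tested genes was -0.02. The difference was at least 2-fold in 1175 higher genes (6.98%) and 1077 lower genes (6.40%), and at least 8-fold in 111 higher genes (0.659%) and 215 lower genes (1.28%). Of all tested genes, 9552 (56.8%) were called and moved in the same direction in all 4 mice. The libraries of the groups did not overlap in 22.8% of all genes with the mix higher and in 23.2% with the mix lower. Genes below were mostly named for small p values or large changes, so separation of their libraries adds no further support. The median fall of the lower genes was -0.55, -0.57, -0.53 and -0.39 on the log2 scale in mice 1 to 4. The median rise of the higher genes was 0.60, 0.64, 0.57 and 0.42. Both of these medians were smallest in mouse 4, but the medians of the satellite glia, fibroblast and contractile lists below fell most in that mouse.

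The 10 largest falls, among genes with a mean log2 CPM of at least 2, were in Col5a2, Olfml2a, Lama2, Col8a1, Kirrel, Fam198b, Col1a1, Tnc, Oaf and Col3a1, and most of them encode proteins of the extracellular matrix. Col5a2, a chain of the fibril-forming collagen V, stood at 359.9, 301, 292 and 573 CPM without transfection and at 2.05, 3.55, 3.40 and 13.5 CPM with the mix, a log2 fold change of -6.25 ± 0.34 (adjusted p = 6.12e-06). Lama2, the laminin chain of the Schwann cell basement membrane (ENSMUSG00000019899, GRCm38 chromosome 10, 26980036 to 27619758, minus strand), went from 64.8, 57.0, 59.0 and 139 CPM to 1.10, 1.25, 0.558 and 2.19 CPM (-5.96 ± 0.16, adjusted p = 8.40e-13). In neither gene did the libraries of the groups overlap, and the untransfected culture of mouse 4 was the highest in both. The smallest p values among lower genes belonged to Fbn1, Itgav, Tns3, Kank2 and Daam2. Fbn1, which encodes fibrillin of the microfibrils, went from 61.0, 86.3, 74.6 and 98.5 CPM to 4.60, 5.69, 4.66 and 8.52 CPM (-3.78 ± 0.09, adjusted p = 7.84e-15).

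Under the same minimum of mean log2 CPM, the 10 largest rises were in Gtse1, Atg9b, Col11a2, Hspa1a, Plk2, Cdh24, Tlcd2, Cxcl16, Fosb and Mrgprd, and all were smaller than the 10 largest falls. Gtse1, a p53-regulating protein of dividing cells, rose from 5.26, 4.85, 6.69 and 10.3 CPM to 50.7, 52.2, 55.8 and 45.6 CPM (2.95 ± 0.21, adjusted p = 2.57e-06). Plk2, a kinase gene that responds to neuronal activity and to p53, rose from 34.9, 29.8, 34.3 and 67.8 CPM to 251, 220.4, 239 and 200.0 CPM (2.56 ± 0.29, adjusted p = 2.84e-04). Both genes had their highest untransfected value and their lowest mix value in mouse 4, without overlap of the groups. Among higher genes, those with the smallest p values were Fzd5, H2-K1, Tmem79, Gch1 and Pcdh17. The protocadherin gene Pcdh17 (ENSMUSG00000035566, plus strand of GRCm38 chromosome 14, 84443563 to 84539002) rose from 51.3, 47.8, 51.8 and 47.7 CPM to 215, 201, 183 and 154 CPM (1.92 ± 0.08, adjusted p = 3.88e-12), and Gch1, the gene of the first enzyme of tetrahydrobiopterin synthesis, from 5.84, 6.52, 5.74 and 5.56 CPM to 32.3, 31.9, 25.3 and 20.3 CPM (2.20 ± 0.10, adjusted p = 4.57e-12). Among genes with a mean of at least 100 CPM, the largest rises after Plk2 were in Ppp1r15a, the phosphatase subunit that reverses eIF2alpha phosphorylation (1.99 ± 0.16), in Pcdh17, in the transcription factor gene Casz1 (1.69 ± 0.13) and in Klhl21 (1.65 ± 0.11).

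**Figure D1:**
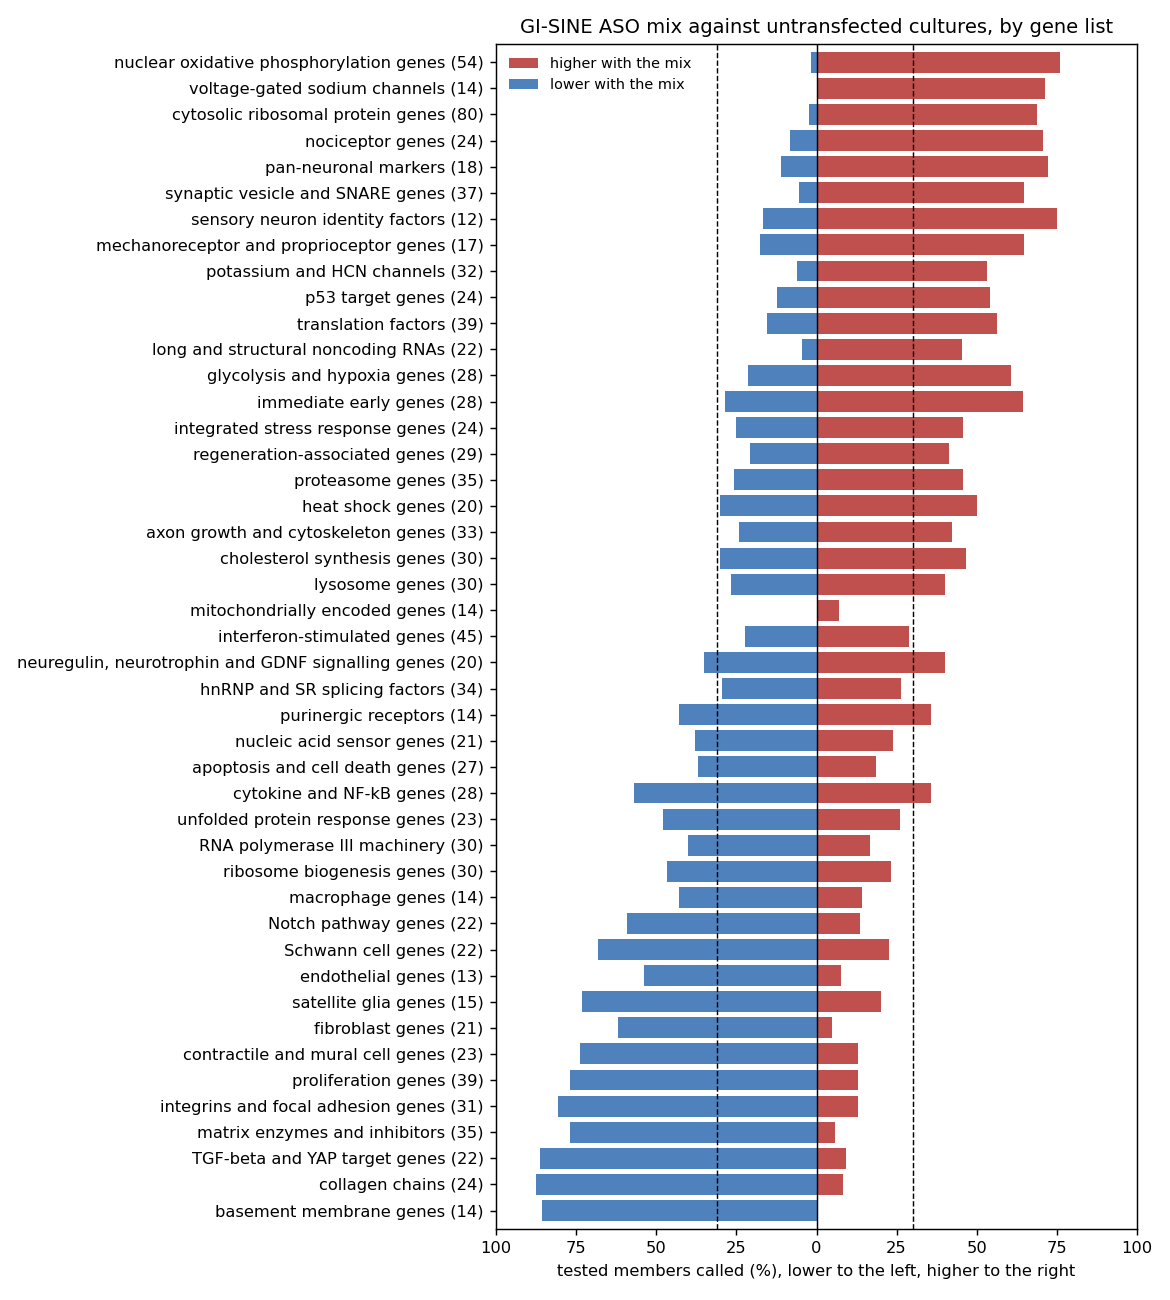
Percent of the members of each gene list with at least 10 tested genes that were called higher (right) or lower (left) with the GI-SINE ASO mix against untransfected cultures, with the number of tested members after each name and dashed lines at the percentages over all tested genes (30.1% higher, 31.1% lower). The matrix, adhesion and glial lists lie mostly to the left, and the neuronal, oxidative phosphorylation and ribosomal protein lists to the right.

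Schwann cells ensheathe axons and depend on axonal neuregulin, which they read through the receptor pair Erbb2 and Erbb3. Of 22 tested Schwann cell genes, 15 were lower and 5 higher, with a median log2 fold change of -1.76. Erbb3 stood at 35.7, 39.9, 32.6 and 59.1 CPM without transfection and 0.950, 2.24, 1.17 and 2.80 CPM with the mix (-4.59 ± 0.18, adjusted p = 5.46e-10). Prx, the periaxin gene of myelinating Schwann cells, went from 16.4, 15.6, 17.0 and 55.9 CPM to 1.65, 1.57, 1.88 and 3.41 CPM (-3.52 ± 0.14, adjusted p = 1.67e-12), and Gldn, which encodes a node-forming adhesion protein, from 85.3, 102, 85.7 and 103 CPM to 15.1, 20.6, 13.8 and 15.0 CPM (-2.55 ± 0.09, adjusted p = 8.57e-13). All mix libraries lay below all untransfected libraries in these 3 genes. The neural crest factor gene Foxd3 fell as well (-2.37 ± 0.15, adjusted p = 1.19e-08).

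The 5 higher members of the Schwann cell list were Ngfr, Pou3f1, S100b, Pmp22 and Drp2, of which Ngfr and S100b are also transcribed by sensory neurons. Ngfr, the low-affinity neurotrophin receptor gene, rose from 279, 243, 292 and 274 CPM to 659, 529.7, 622 and 465 CPM (1.06 ± 0.07, adjusted p = 1.18e-09). S100b stood at a log2 fold change of 0.98 ± 0.09, the myelin protein gene Pmp22 at 0.28 ± 0.05, and 0.11 and not called after trend removal, the dystroglycan-complex gene Drp2 at 0.25 ± 0.08, marginal and Pou3f1, a POU factor of promyelinating Schwann cells, at 1.86 ± 0.18. The list as a whole took 0.150% to 0.187% of the counts without transfection and 0.140% to 0.164% with the mix, ranges that overlap although most members fell.

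Satellite glia buffer potassium and glutamate around the neuron. Of 15 genes of this list, 11 were lower and 3 higher (median -2.64). The list's median log2 difference was -1.98, -1.67, -2.13 and -3.195 in mice 1 to 4. Kcnj10, the inward rectifier that takes up potassium, went from 8.76, 11.2, 9.35 and 12.5 CPM to 0.500, 0.783, 0.558 and 0.609 CPM (-4.08 ± 0.18, adjusted p = 3.88e-12). Fabp7, the fatty acid binding protein of satellite glia, went from 3.60, 5.85, 3.85 and 4.41 CPM to 0.850, 0.731, 0.456 and 0.670 CPM (-2.69 ± 0.21, adjusted p = 6.77e-09). Both groups of libraries were separate in these genes, with all mix values under 1 CPM. The endothelin receptor gene Ednrb (-1.08 ± 0.08) fell too. The 3 higher members were Glul, the glutamine synthetase gene (0.29 ± 0.05), Apoe (0.23 ± 0.09, marginal) and the scarce Aqp4 (1.33 ± 0.42, marginal). Once the trend of every library with transcript length and GC content was removed, Apoe was at -0.02 and not called.

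In bulk RNA, fewer cells of a type and less RNA per cell cannot be told apart. The satellite glia list took 0.0662% to 0.0863% of the counts without transfection and 0.0505% to 0.0765% with the mix. No marker of the Schwann cell or satellite glia lists was at 0 in all libraries of a group. Of the fibroblast markers too low to test, Tcf21 and Sfrp2 were at 0 in all 4 mix libraries.

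Fibroblasts secrete most of the matrix of the ganglion. Of 21 tested fibroblast genes, 13 were lower and 1 higher (median -1.72). The median log2 difference of these genes was -1.25, -1.23, -1.37 and -1.78 in mice 1 to 4. The summed level of the list was 0.102% to 0.153% of the counts without transfection and 0.0176% to 0.0281% with the mix. Prrx1, a homeobox gene of mesenchymal cells, went from 8.40, 13.5, 10.4 and 9.62 CPM to 0.300, 0.679, 0.253 and 0.609 CPM (-4.52 ± 0.22, adjusted p = 1.74e-11). Sfrp1, a secreted Wnt antagonist, went from 237, 184, 183 and 288 CPM to 25.2, 23.6, 25.1 and 24.0 CPM (-3.17 ± 0.16, adjusted p = 3.65e-07), and its 4 mix libraries lay within a narrow band. The higher member was Cd34 (0.67 ± 0.10). Both Pdgfra and Dcn, chosen after their values were seen because they are standard fibroblast markers, were not called: Pdgfra was at 14.7, 15.6, 17.8 and 18.4 CPM and 14.9, 15.2, 14.3 and 16.9 CPM, and Dcn at -0.14 ± 0.09 on the log2 scale (adjusted p = 0.188). With libraries scaled by their totals only both were called lower, Pdgfra at -0.20 and Dcn at -0.23.

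Of 24 tested collagen chains, 21 were lower and 2 higher, the median log2 fold change was -3.12, and 20 fell at least 2-fold, against 6.40% of all genes. The chains of collagen I, the main fibril of connective tissue, fell together. Col1a1 went from 173, 182, 158 and 157 CPM to 4.05, 6.05, 2.89 and 4.87 CPM (-5.25 ± 0.22, adjusted p = 1.80e-07) and Col1a2 from 277, 280.3, 272 and 374 CPM to 4.20, 12.3, 7.30 and 15.5 CPM (-5.03 ± 0.28, adjusted p = 5.68e-06). On the log2 scale Col3a1 fell by 5.14, Col12a1 fell by 4.61 and Col8a1 fell by 5.88. Exceptions were Col20a1 (1.06 ± 0.21) and Col7a1 (0.55 ± 0.14), which were higher, and Col6a2, which was not called (-0.06 ± 0.16). Col11a2, outside the list, was among the 10 largest rises and went from 1.80, 1.62, 1.78 and 1.67 CPM to 13.4, 16.8, 10.5 and 5.54 CPM (2.71 ± 0.29, adjusted p = 9.53e-06), with the smallest rise in mouse 4. The collagen list as a whole took 0.222% to 0.361% of the counts without transfection and 0.0227% to 0.0434% with the mix.

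Basement membranes are sheets of laminin, collagen IV and proteoglycans. Of 14 tested genes of these sheets 12 were lower and none higher (median -2.57). Sparc, a matrix glycoprotein, went from 359, 386, 337 and 542 CPM to 41.8, 80.5, 50.1 and 99.2 CPM (-2.64 ± 0.12, adjusted p = 3.72e-08). Tnc, the tenascin gene of growing and healing tissue, went from 336, 222, 245 and 264 CPM to 6.85, 7.62, 4.82 and 11.4 CPM (-5.16 ± 0.25, adjusted p = 1.48e-06). In both genes the lowest untransfected value was several times the highest mix value. Among 35 genes of matrix enzymes and their inhibitors, 27 were lower and 2 higher (median -1.36), with falls in Plat, the tissue plasminogen activator gene (-2.43 ± 0.10), in Timp3 (-2.62 ± 0.10) and in the collagen hydroxylase gene P4ha1 (-1.52 ± 0.08). Plau, the urokinase gene (1.22 ± 0.19), and Timp2 (0.41 ± 0.04) were the higher members.

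Integrins bind the matrix and pass force to actin through focal adhesions. Of 31 tested genes 25 were lower and 4 higher (median -0.88). Itgav, the alpha chain of vitronectin receptors, went from 90.9, 103, 95.6 and 156 CPM to 11.4, 12.8, 12.3 and 25.1 CPM (-2.88 ± 0.08, adjusted p = 3.97e-14), and Tns3, a tensin of focal adhesions, from 196, 174, 159 and 289.6 CPM to 13.2, 18.5, 12.2 and 25.4 CPM (-3.58 ± 0.09, adjusted p = 1.28e-13). The untransfected value of mouse 4 was the highest of the group in both genes, and so was its mix value. Flna, the actin crosslinker filamin A, fell by 2.27. The 4 higher members were Itga3 (0.41 ± 0.07), Ilk (0.38 ± 0.07), Tns1 (0.27 ± 0.05, and 0.10 and not called after trend removal) and Zyx (0.20 ± 0.06, marginal), of which Zyx was at -0.05 and not called after removal of the length and GC trend. Of 22 TGF-beta and YAP genes 19 were lower and 2 higher (median -1.11). They include the ligand gene Tgfb1 (-1.60 ± 0.09), its receptor gene Tgfbr2 (-1.78 ± 0.13), the latent TGF-beta binding protein gene Ltbp2 (-4.17 ± 0.20) and Tead1, the DNA-binding partner of YAP (-2.08 ± 0.09), while Inhba (0.43 ± 0.09) and Tgfb3 (0.22 ± 0.08, marginal) were higher.

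Contractile genes of smooth muscle and mural cells are switched on by serum response factor (SRF), which binds the CArG box. Of 23 tested members 17 were lower and 3 higher (median -0.64). The list's median log2 difference was -0.59, -0.51, -0.84 and -1.09 in mice 1 to 4. Cnn2, a calponin gene shown for its promoter and not by the naming rule, went from 78.1, 53.8, 56.5 and 119 CPM to 1.20, 2.09, 1.77 and 8.58 CPM (-4.67 ± 0.30, adjusted p = 7.28e-06). Myl9, a myosin light chain gene, went from 5.08, 3.18, 4.32 and 15.4 CPM to 0.350, 0.209, 0.253 and 1.10 CPM (-3.87 ± 0.24, adjusted p = 3.23e-10), with the highest value of both groups in mouse 4. Pdgfrb, the receptor gene of mural cells, fell by 2.47 and Vim, the intermediate filament gene of mesenchyme and glia, fell by 1.61. The higher members were Rgs5 (0.89 ± 0.10), Mcam (0.40 ± 0.09) and Srf itself (0.19 ± 0.07, marginal, and -0.04 and not called after removal of the length and GC trend). The CArG box, searched on both strands, occurred in 3 of the 21 promoters of the list found in RefSeq (GRCm38.p6, 250 bases before to 50 after the start) (Myl9, Cnn2 and Srf), a share of 14.3% against 1.63% of all 32851 promoters. Those of Myl9 and Cnn2, with the CArG match in capitals, are shown because they carry the box and their genes fell, while the promoter of Srf held 2 matches.
Myl9 (GRCm38.p6, chr2:156775214-156775513, plus strand): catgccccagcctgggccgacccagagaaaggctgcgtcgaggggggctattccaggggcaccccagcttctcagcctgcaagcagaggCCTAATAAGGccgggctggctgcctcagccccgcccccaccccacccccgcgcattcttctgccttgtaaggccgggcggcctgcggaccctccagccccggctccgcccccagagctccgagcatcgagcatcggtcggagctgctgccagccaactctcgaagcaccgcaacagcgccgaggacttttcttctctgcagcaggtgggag
Cnn2 (GRCm38.p6, chr10:79988350-79988649, plus strand): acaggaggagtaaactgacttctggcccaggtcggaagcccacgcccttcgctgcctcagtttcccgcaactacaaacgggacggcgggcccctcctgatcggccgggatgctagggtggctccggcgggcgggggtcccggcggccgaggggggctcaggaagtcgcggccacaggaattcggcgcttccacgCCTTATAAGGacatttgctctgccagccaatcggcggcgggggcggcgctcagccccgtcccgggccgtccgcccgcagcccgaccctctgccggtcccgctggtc

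**Figure D2:**
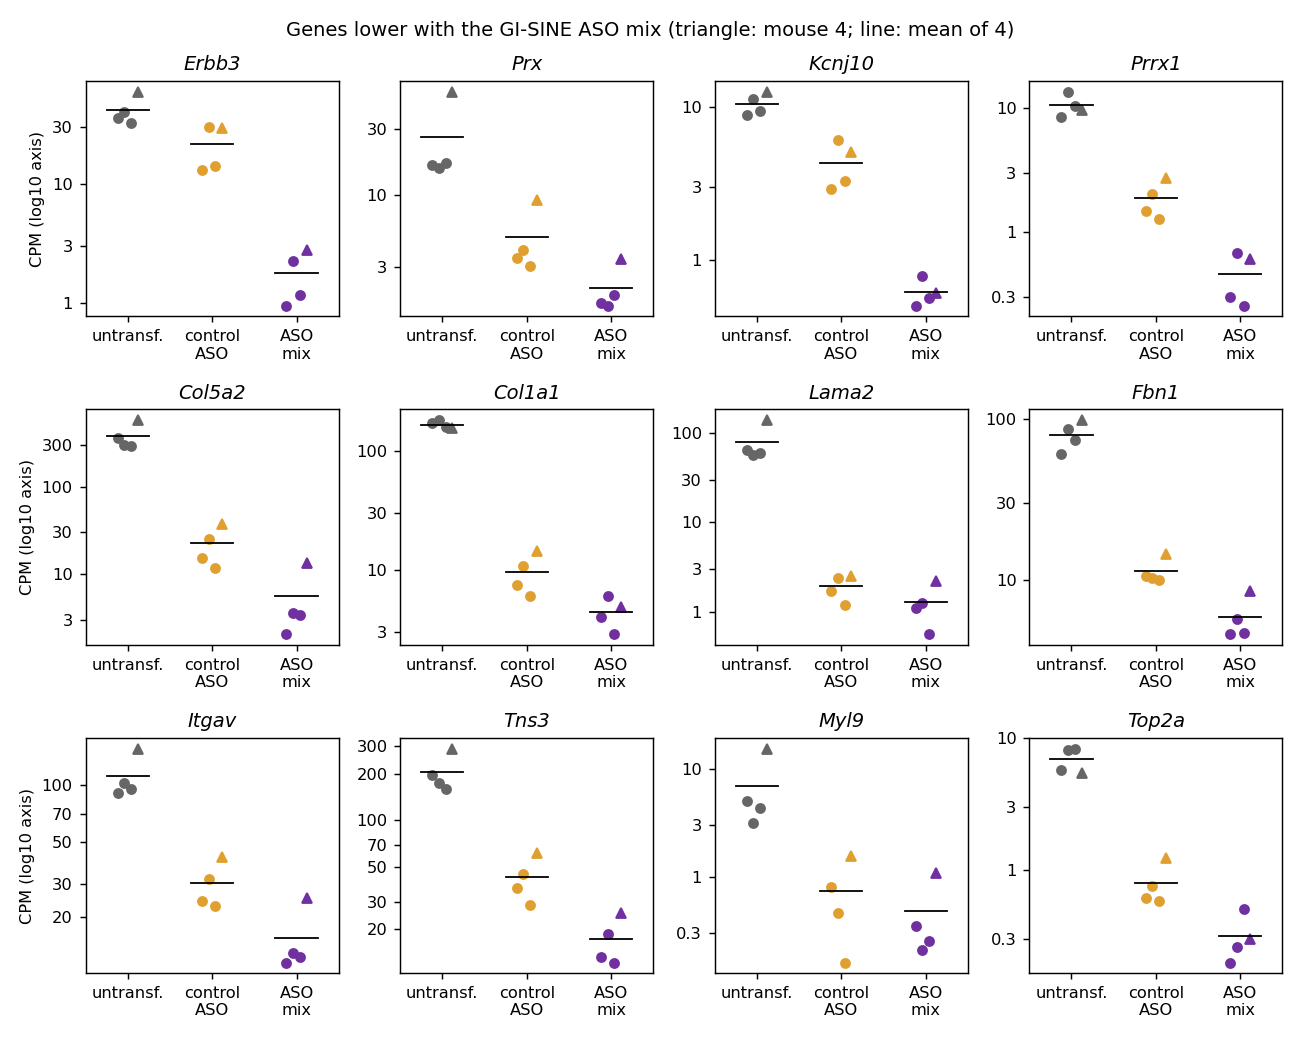
CPM per library (log10 axis) of 12 genes of glia, fibroblasts, matrix, adhesion and cell division in untransfected, control ASO and mix cultures, 1 point per mouse, with mouse 4 as a triangle. In each gene every mix point lies below every untransfected point, and the control ASO mean lies between those of the other groups.

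Of 39 tested proliferation genes 30 were lower and 5 higher, with a median log2 fold change of -1.03. Top2a, the topoisomerase that untangles replicated chromosomes, went from 5.80, 8.09, 8.35 and 5.47 CPM to 0.200, 0.261, 0.507 and 0.304 CPM (-4.41 ± 0.27, adjusted p = 2.38e-10). Every mix value of Top2a was below every untransfected one. Mki67, the gene of the Ki-67 antigen of dividing cells, went from 7.10, 12.9, 11.3 and 6.93 CPM to 0.700, 1.15, 1.27 and 1.34 CPM (-3.10 ± 0.23, adjusted p = 1.06e-08). Both genes were scarce already in the untransfected culture. Mcm7, a subunit of the replicative helicase, went the other way, from 25.3, 26.0, 25.03 and 27.1 CPM to 84.2, 91.9, 84.9 and 67.8 CPM (1.67 ± 0.10, adjusted p = 5.36e-09), whereas its partner Mcm6 fell (-0.81 ± 0.08, adjusted p = 1.73e-07). The mitotic kinase gene Aurka rose from 3.24, 3.71, 2.55 and 2.91 CPM to 5.65, 5.79, 6.39 and 4.57 CPM (0.85 ± 0.16, adjusted p = 1.73e-04), and Ccne2 (0.37 ± 0.12, marginal), E2f1 (0.41 ± 0.08) and Pcna (0.31 ± 0.06) were the other higher members.

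Many cell cycle promoters carry CCAAT boxes, bound by NF-Y, and the word TTTGAA of the cell cycle homology region. CCAAT occurred on either strand in 75% of 32 promoters of the proliferation list against 37.4% of all promoters, and TTTGAA in 43.8% against 17.9%. The promoters of Top2a, the deepest fall of the list, and of Aurka, a member that rose, hold both words, shown in capitals on either strand. Top2a had 6 copies of CCAAT and 2 of TTTGAA in this window, and Aurka had 2 and 1.
Top2a (GRCm38.p6, chr11:99024140-99024439, minus strand): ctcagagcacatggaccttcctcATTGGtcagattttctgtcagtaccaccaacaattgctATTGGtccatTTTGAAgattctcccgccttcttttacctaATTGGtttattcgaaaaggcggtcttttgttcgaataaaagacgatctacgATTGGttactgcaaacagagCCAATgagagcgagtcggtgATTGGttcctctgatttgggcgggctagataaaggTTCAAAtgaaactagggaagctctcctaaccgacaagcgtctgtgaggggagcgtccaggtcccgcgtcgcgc
Aurka (GRCm38.p6, chr2:172370521-172370820, minus strand): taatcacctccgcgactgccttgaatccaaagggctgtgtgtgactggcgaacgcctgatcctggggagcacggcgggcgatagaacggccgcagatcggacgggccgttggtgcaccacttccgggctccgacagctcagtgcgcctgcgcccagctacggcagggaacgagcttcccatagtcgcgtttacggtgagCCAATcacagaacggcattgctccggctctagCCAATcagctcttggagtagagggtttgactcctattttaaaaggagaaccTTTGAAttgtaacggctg

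Endothelial and macrophage markers were scarce and moved unevenly. Of 13 endothelial genes 7 were lower and 1 higher (median -0.51). In none of them were the groups separate, against 22.8% of all genes that were separate and higher and 23.2% that were separate and lower. The list took 0.00717% to 0.0365% of the counts without transfection and 0.00484% to 0.0308% with the mix, the highest value of each group being that of mouse 4. Cdh5, the vascular cadherin gene, was at 6.74, 10.8, 6.57 and 37.3 CPM and 3.00, 4.85, 3.50 and 32.0 CPM (-0.74 ± 0.14, adjusted p = 1.61e-04). In each mouse the mix value was the lower, but the 2 values of mouse 4 exceeded all others. Without mouse 4 the median of the list was -0.97. Of 14 tested macrophage genes 6 were lower and 2 higher: Ctss, a lysosomal protease gene, was at 1.08, 3.08, 2.43 and 2.48 CPM and 0.0999, 0.418, 0.101 and 1.34 CPM (-2.32 ± 0.41, adjusted p = 1.54e-04), while Cd68 rose from 12.99, 16.8, 18.8 and 16.4 CPM to 41.1, 46.5, 41.2 and 38.2 CPM (1.38 ± 0.09, adjusted p = 1.45e-09) and Cd14 by 1.26.

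Most marker genes of neurons rose. Among 18 pan-neuronal markers, 13 rose and 2 fell (median 0.40), and the list took 0.894% to 1.15% of the counts without transfection and 1.14% to 1.41% with the mix. Uchl1, the abundant ubiquitin hydrolase of neurons, went from 1483, 1414, 1445 and 1180.0 CPM to 2181, 2184, 2233 and 1700.0 CPM (0.59 ± 0.04, adjusted p = 3.22e-09), and Nefm, a neurofilament chain, from 446, 406, 423 and 320.0 CPM to 709, 577, 677 and 543 CPM (0.65 ± 0.06, adjusted p = 2.57e-08). Map2, a microtubule protein of dendrites and cell bodies, went the other way, from 176, 180.1, 173 and 146 CPM to 119, 94.4, 96.5 and 96.6 CPM (-0.73 ± 0.08, adjusted p = 3.03e-07), with no overlap in either direction in these 3 genes. Elavl4 was the other lower marker (-0.31 ± 0.06, and -0.15 and not called after trend removal). Tubb3 (-0.07 ± 0.07), Nefh (0.14 ± 0.07) and Elavl3 (-0.04 ± 0.08) were not called. Without mouse 4 Tubb3 (-0.18) and Elavl3 (-0.18) were called lower, and Tubb3 also with the length and GC trend removed (-0.27). Beside this rise stand the falls of 15 of 22 Schwann cell, 11 of 15 satellite glia and 13 of 21 fibroblast genes with the summed shares given above. Their part in the rise of neuronal genes was not tested.

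Nociceptors are the small sensory neurons that report heat, itch and tissue damage. Of 24 tested nociceptor genes 17 were higher and 2 lower (median 0.81), and 11 rose at least 2-fold, against 6.98% of all genes. Mrgprd, a receptor gene of non-peptidergic nociceptors, rose from 6.70, 7.83, 11.2 and 6.12 CPM to 53.7, 47.0, 71.3 and 13.1 CPM (2.44 ± 0.35, adjusted p = 7.97e-04). In mouse 4 this rise was the smallest of the 4 mice, and the list's median log2 difference was 0.99, 0.89, 1.04 and 0.41 in mice 1 to 4. Lpar3, a lysophosphatidic acid receptor gene, rose by 1.06, and stood 1.03 above the untransfected level already with the control ASO. Osmr, the oncostatin M receptor gene (-0.41 ± 0.07), and the neuropeptide gene Adcyap1 (-0.25 ± 0.07, marginal, and -0.15 and not called after trend removal) were the lower members. The sodium channel genes Scn9a (0.11 ± 0.06) and Scn10a (-0.11 ± 0.07) were not called, although without mouse 4 Scn10a was called lower (-0.24). Scn9a was called higher without mouse 3 (0.17), under a stricter filter on low counts (0.14) and after trend removal (0.45).

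Mechanoreceptors and proprioceptors are the large touch and position neurons. Of 17 genes 11 were higher and 3 lower (median 0.66). Slc17a7, a vesicular glutamate transporter gene, went from 39.3, 32.8, 41.3 and 35.9 CPM to 70.4, 59.7, 75.7 and 77.4 CPM (0.92 ± 0.08, adjusted p = 1.36e-08) and the potassium channel subunit gene Kcns1 from 5.75, 4.49, 8.23 and 8.17 CPM to 14.5, 14.5, 19.5 and 18.5 CPM (1.36 ± 0.13, adjusted p = 1.14e-07). Neither gene's groups overlapped. Spp1, the osteopontin gene (-1.83 ± 0.22), the transcription factor gene Maf (-0.81 ± 0.11) and Ntrk2 (-0.38 ± 0.08) were lower. Among 12 sensory neuron identity factors 9 were higher and 2 lower (median 0.55). Their summed share was 0.127% to 0.140% of the counts without transfection and 0.123% to 0.135% with the mix. This share was lower with the mix in mice 1 to 3, although most members rose. Pou4f3 rose by 1.03 and Tlx3 by 0.61 (0.11 and not called after trend removal), whereas Klf7 (-0.32 ± 0.05) and Runx1 (-0.29 ± 0.06) fell.

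Sodium channels set off the action potential. Of 14 tested genes 10 were higher and none lower (median 0.76). The list's median log2 difference was 0.81, 0.80, 0.85 and 0.33 in mice 1 to 4. Among subunit genes of these channels, Scn2b rose by 1.14, Scn3b by 0.91 and Scn4b by 0.89. Of 32 potassium and HCN channel genes 17 were higher and 2 lower (median 0.28). Kcna2, the delayed rectifier of axons, rose by 1.01 and Hcn2, the pacemaker channel of nociceptors, by 0.68. The lower members were Kcnma1, the calcium-activated channel gene (-0.62 ± 0.06), and Kcna6 (-0.17 ± 0.06, marginal, and -0.03 and not called after trend removal). Of 37 genes of synaptic vesicles and their fusion proteins 24 were higher and 2 lower (median 0.33). Cplx1, which clamps vesicle fusion, rose from 347, 327, 409 and 311 CPM to 720.2, 689.5, 769 and 596 CPM (0.996 ± 0.06, adjusted p = 9.55e-11) and the vesicle protein gene Syp from 375, 335, 383 and 287 CPM to 718, 696, 709 and 511 CPM (0.93 ± 0.05, adjusted p = 1.60e-10). Rims2 (-0.42 ± 0.07) and Slc17a6 (-0.15 ± 0.05, marginal, and -0.09 and not called after trend removal) fell.

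**Figure D3:**
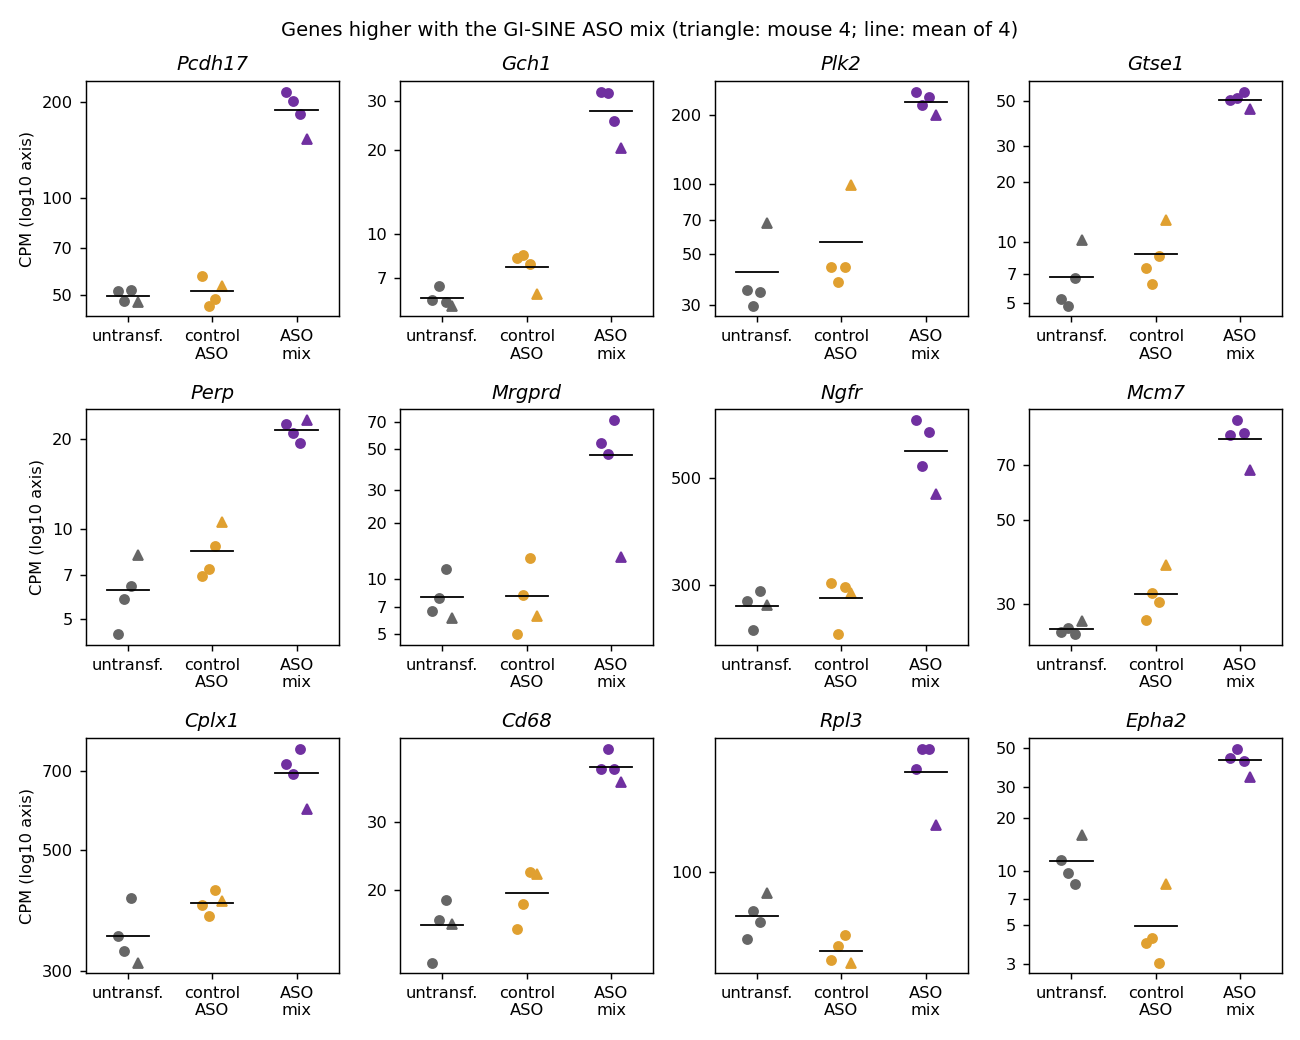
CPM per library (log10 axis) of 12 genes that were higher with the GI-SINE ASO mix, in untransfected, control ASO and mix cultures, 1 point per mouse, with mouse 4 as a triangle. In each gene every mix point lies above every untransfected point, and in Rpl3 and Epha2 the control ASO mean lies below both other means.

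Regeneration-associated genes are those that sensory neurons switch on after axon injury, and dissociation of the ganglion is itself such an injury. Of 29 tested members 12 were higher and 6 lower (median 0.12), a share of higher members not far above the 30.1% of all genes. Jun, a transcription factor of the injury response, went from 352, 356, 353 and 347 CPM to 479, 536, 502 and 471 CPM (0.50 ± 0.06, adjusted p = 6.35e-07). Gal, the galanin gene, went from 63.3, 47.0, 43.9 and 21.0 CPM to 98.7, 103, 78.2 and 44.7 CPM (0.92 ± 0.08, adjusted p = 2.43e-08), higher in each mouse, although the groups overlap because the values of mouse 4 were the lowest of both. Lif, a cytokine gene of injured nerve, fell from 51.2, 40.3, 42.4 and 60.7 CPM to 9.35, 14.2, 10.04 and 9.68 CPM (-2.16 ± 0.14, adjusted p = 5.58e-08), and Rest, a repressor of neuronal genes, fell too (-0.59 ± 0.08). Of 33 axon growth and cytoskeleton genes 14 were higher and 8 lower (median 0.07, and -0.02 with libraries scaled by their totals only). The summed share of this list was 2.14% to 2.73% of the counts without transfection and 2.15% to 2.41% with the mix, lower with the mix in mice 1 to 3. Crmp1 (0.58 ± 0.05), Stmn4 (0.60 ± 0.05) and Marcksl1 (0.92 ± 0.10), proteins of growth cones, rose. Sema6a, a guidance cue gene, fell (-0.71 ± 0.06), as did Dync1h1, the heavy chain of the dynein motor, from 3706, 3631, 3562 and 2705 CPM to 2528, 2580.0, 2373 and 2320.0 CPM (-0.46 ± 0.06, adjusted p = 1.26e-06).

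Genes of energy supply and protein synthesis rose by small amounts in many members. Among the 54 nuclear oxidative phosphorylation genes, 41 rose and 1 fell (median 0.35), the exception being Ndufs4 (-0.22 ± 0.08, marginal, and -0.16 and not called after trend removal). Atp5d, a subunit of ATP synthase, went from 185, 181, 181 and 163 CPM to 316, 314, 302 and 243 CPM (0.72 ± 0.05, adjusted p = 3.03e-09), without overlap. Of 14 tested mitochondrially encoded genes only mt-Co1 was called (0.27 ± 0.08, marginal), and the median of this list was -0.03. The mice differed in direction, with median log2 differences of 0.50, -0.20, 0.04 and -0.38 in mice 1 to 4. Of 28 glycolysis and hypoxia genes 17 were higher and 6 lower (median 0.26), with rises in Aldoc (1.08 ± 0.08) and Eno2 (0.61 ± 0.05) and falls in the glucose transporter gene Slc2a3 (-0.46 ± 0.06) and the lactate transporter gene Slc16a3 (-0.70 ± 0.11).

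Among the 80 cytosolic ribosomal protein genes, 55 rose and 2 fell (median 0.30), and many have processed pseudogenes with which reads can be shared. Rpl3 went from 85.2, 91.1, 88.7 and 95.1 CPM to 128, 134, 134 and 112 CPM (0.49 ± 0.06, adjusted p = 1.41e-06). The list's median log2 difference was 0.39, 0.37, 0.41 and 0.03 in mice 1 to 4, so that mouse 4 hardly shared it. Rps27l (-0.42 ± 0.08) and Rpl23 (-0.26 ± 0.07, marginal) were lower. Of 39 translation factors 22 were higher and 6 lower (median 0.16): Eif6, which keeps ribosomal subunits apart, rose (0.72 ± 0.06), and the cap-binding protein gene Eif4e (-0.48 ± 0.06) and the initiation factor subunit gene Eif3a (-0.46 ± 0.05) fell. Of 30 ribosome biogenesis genes 7 were higher (23.3%) and 14 lower (46.7%), with a median of -0.11. Of 30 genes of the RNA polymerase III machinery, which transcribes B2 elements, 5 were higher and 12 lower (median -0.13, and -0.02 in mouse 4). The higher members included Gtf3c4, a subunit of the initiation factor TFIIIC, which went from 52.1, 50.9, 51.3 and 52.1 CPM to 96.5, 98.7, 78.2 and 83.9 CPM (0.79 ± 0.07, adjusted p = 1.22e-08).

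Stress lists are given beside the 30.1% of all genes that were higher and the 31.1% that were lower. Of 24 p53 targets 13 were higher and 3 lower (median 0.37), and the list took 0.129% to 0.167% of the counts without transfection and 0.204% to 0.230% with the mix. Cdkn1a, the gene of the cell cycle inhibitor p21, went from 421, 411, 419 and 461 CPM to 722, 729, 675 and 719.8 CPM (0.74 ± 0.05, adjusted p = 1.51e-09), and Perp, a p53 effector at cell junctions, from 4.45, 5.85, 6.45 and 8.21 CPM to 22.4, 21.0, 19.5 and 23.1 CPM (1.81 ± 0.12, adjusted p = 5.81e-10). The groups were separate in both. Lower members were Mdm2, the p53 ubiquitin ligase gene (-0.23 ± 0.06), the death receptor gene Tnfrsf10b (-1.36 ± 0.15) and Rrm2b (-0.24 ± 0.07, marginal). Of 27 apoptosis genes 5 were higher (18.5%) and 10 lower (37.0%), with a median of -0.04, and 0.05 in mouse 4. Bcl2l1, a survival gene (-0.58 ± 0.08), and the initiator caspase gene Casp8 (-2.35 ± 0.35) were among the members with the smallest p, and Casp9 (0.39 ± 0.06) was higher. Of 35 proteasome subunit genes 16 were higher and 9 lower (median 0.12), with Psmc5 at 0.66 ± 0.05. Of 30 lysosome genes 12 were higher (40.0%) and 8 lower (26.7%), with a median of 0.09 and the protease gene Ctsd at 0.44 ± 0.05. None of the 3 tested markers of other leukocytes was called (median 0.61).

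Of 20 heat shock genes 10 were higher and 6 lower (median 0.11). Hspa1a, an inducible HSP70 gene with a near-identical copy whose reads it may share, went from 6.70, 6.58, 5.50 and 12.02 CPM to 50.7, 46.9, 50.2 and 32.4 CPM (2.58 ± 0.31, adjusted p = 2.78e-04), while Cryab, a small heat shock gene also of glia, fell from 195, 161, 165 and 234 CPM to 11.9, 18.2, 13.5 and 27.3 CPM (-3.47 ± 0.18, adjusted p = 6.32e-07). In both genes the control ASO level lay between those of the other groups. Of 24 genes of the integrated stress response 11 were higher and 6 lower (median 0.17, and -0.01 with those trends in length and GC content removed). Atf4, its central factor, rose (0.64 ± 0.05), and the cystine transporter gene Slc7a11 fell (-1.67 ± 0.10). Of 23 unfolded protein response genes 6 were higher and 11 lower (median -0.06), with Dnajb9 (1.56 ± 0.10) and the disulfide isomerase gene Pdia4 (-0.78 ± 0.06) at opposite ends. Of 28 immediate early genes 18 were higher and 8 lower (median 0.38): Fosb (2.44 ± 0.28) and Ier5 (1.24 ± 0.09) rose, and Dusp6 (-1.21 ± 0.12) and Nr4a1 (-0.92 ± 0.10) fell.

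Interferon-stimulated genes, which report the sensing of foreign nucleic acid, showed no common direction. Of 45 tested members 13 were higher (28.9%) and 10 lower (22.2%), with a median of 0.04, and -0.06 in mouse 4. Against the same untransfected libraries, the control ASO gave 19 higher and 2 lower (10.5% and 13.7% of all genes), a median of 0.37. From control ASO to mix 6 were higher and 18 lower (27.3% and 28.8% of all genes), a median of -0.25. H2-K1, a class I antigen gene, with reads that other class I genes may share, rose with the mix from 44.5, 46.6, 48.4 and 61.2 CPM to 98.8, 117, 109 and 126 CPM (1.17 ± 0.06, adjusted p = 1.72e-11), and the antiviral gene Rsad2 by 1.32. Parp14 fell from 13.7, 13.9, 11.4 and 23.9 CPM to 2.85, 1.83, 2.38 and 4.57 CPM (-2.43 ± 0.13, adjusted p = 4.25e-11), with both values highest in mouse 4. Rnf213 was higher with the control ASO (0.37) and lower with the mix (-0.47 ± 0.06, and -0.08 and not called after trend removal). Of 21 tested nucleic acid sensor genes 5 were higher (23.8%) and 8 lower (38.1%), with a median of -0.14. Mavs, the mitochondrial adaptor of RNA sensing, fell from 4.90, 5.64, 5.21 and 7.01 CPM to 0.999, 0.679, 0.710 and 1.28 CPM (-2.63 ± 0.18, adjusted p = 1.30e-09).

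Of 28 tested cytokine and NF-kB genes 10 were higher and 16 lower (median -0.47). Il1a, the interleukin 1 alpha gene, was near the floor of detection without transfection, at 0.0449, 0, 0.118 and 0.0855 CPM, and reached 2.70, 2.82, 2.59 and 1.52 CPM with the mix (5.13 ± 0.46, adjusted p = 3.53e-08), so the size of its fold rests on very few untransfected counts. Nfkbiz, a nuclear inhibitor gene of NF-kB, rose (1.49 ± 0.14) and Ptgs2, the inducible cyclooxygenase gene, fell from 10.7, 15.1, 12.96 and 25.2 CPM to 0.900, 0.835, 1.12 and 3.83 CPM (-3.36 ± 0.21, adjusted p = 9.33e-09). Csf1, a growth factor of macrophages, fell from 349.8, 375, 344 and 225 CPM to 174, 207, 125 and 115 CPM (-1.07 ± 0.08, adjusted p = 5.62e-08), and its groups did not overlap.

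Notch, neuregulin and purinergic signalling join neurons to their neighbours. Of 22 tested Notch genes 13 were lower and 3 higher (median -0.61). Notch2, a receptor gene, went from 42.8, 46.8, 41.7 and 68.3 CPM to 8.80, 10.7, 9.83 and 10.2 CPM (-2.31 ± 0.09, adjusted p = 1.67e-12) and the ligand gene Jag1 from 136, 127, 116 and 171 CPM to 22.9, 27.6, 25.3 and 41.3 CPM (-2.26 ± 0.12, adjusted p = 1.25e-08). Nrarp (1.21 ± 0.10) and the scarce ligand genes Dll1 (1.03 ± 0.33, marginal) and Dll3 (1.04 ± 0.39, marginal, and 0.78 and not called after trend removal) were higher. Among 20 neuregulin, neurotrophin and GDNF genes 8 were higher and 7 lower (median 0.05, and 0.00 in mouse 4): the receptor genes of glia, Erbb2 (-3.05 ± 0.19), Erbb3 and Egfr (-2.73 ± 0.20), fell, and the neurotrophin receptor gene Ngfr rose. Of 14 tested purinergic genes 5 were higher and 6 lower (median -0.16, and 0.04 in mouse 4). Entpd1, a surface enzyme that removes ATP, fell from 15.8, 19.8, 16.1 and 28.6 CPM to 0.04997, 0.731, 0.608 and 1.95 CPM (-4.69 ± 0.38, adjusted p = 7.53e-06), the ATP-gated channel gene P2rx7 fell by 4.15, and the adenosine receptor gene Adora2a rose by 2.07.

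The steps that make up the change were set side by side, and they share libraries with the comparison above, so no overlap between them is given. From no transfection to control ASO 4081 genes differed (24.2%), 1775 higher and 2306 lower, and from control ASO to mix 9454 differed (56.2%), 4600 higher (27.3%) and 4854 lower (28.8%). The control ASO level was tested against the midpoint of the other groups on the log2 scale. This asks whether the signed steps differ, so steps of similar size in opposite directions also lie off it. Of all tested genes, 5776 (34.3%) lay off the midpoint, 2853 above (17.0%) and 2923 below (17.4%). That count was 3150, 3481 and 3513 without mouse 1, 2 or 3, and the count from no transfection to control ASO was 2540 without mouse 3. Collagens had made most of their fall with the control ASO, with a median of -2.63 in the first step and -1.01 in the other, and 11 of 24 chains lay below the midpoint and 3 above. Lama2 fell by 5.29 in the first step and by 0.66 in the other, and Daam2 fell by 3.85 and then fell by 0.17. Proliferation genes had a median of -0.83 in the first step and -0.12 in the other, with 15 of 39 below the midpoint.

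Erbb3 and P2rx7 behaved otherwise, with -1.001 and -0.57 in the first step and -3.59 and -3.58 in the other. With the control ASO Erbb3 was at 13.1, 29.7, 14.1 and 29.6 CPM, nearer to the untransfected than to the mix value in every mouse on the log2 scale. Fabp7 hardly moved in the first step (-0.18, adjusted p = 0.451) and fell by 2.51 in the other. Several neuronal lists had the larger median in the step to the mix. Among them, the nociceptor list had a median of 0.13 with the control ASO and 0.62 from there to the mix. Nuclear oxidative phosphorylation genes had medians of 0.03 and 0.31, and the single gene Pcdh17 had log2 fold changes of 0.05 and 1.87. For sensory neuron identity factors the first step had the larger median (0.29 and 0.20). Potassium and HCN channels had similar medians in the steps (0.13 and 0.15).

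Some lists moved in opposite directions in the steps, so that the comparison with the untransfected culture holds a difference between them. Ribosomal protein genes were lower with the control ASO (26 of 80, none higher, median -0.17) and then higher with the mix than with the control ASO (71 of 80, none lower, median 0.47), and 66 of 80 control ASO levels lay below the midpoint. Cholesterol synthesis genes followed the same course, with 10 of 30 lower and 1 higher in the first step, 19 higher and 1 lower in the other, and 14 higher and 9 lower over both (median 0.20, and -0.15 in mouse 4). Of 34 hnRNP and SR splicing factors 15 were lower and none higher in the first step (median -0.17). In the other step 20 were higher and 5 lower (median 0.22). Over both steps 9 were higher (26.5%) and 10 lower (29.4%), with a median of -0.07, and -0.20 in mouse 4. Ptbp1, the splicing repressor, was at 44.1, 48.6, 49.9 and 66.3 CPM without transfection, 21.4, 20.7, 20.6 and 30.7 CPM with the control ASO and 32.6, 37.1, 30.4 and 36.6 CPM with the mix, so that it was lower with the mix than without transfection (-0.60 ± 0.08, adjusted p = 4.30e-06) though higher than with the control ASO.

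Single genes with opposed steps ended above, below or at the untransfected level. Epha2, an ephrin receptor gene, was at 11.6, 9.76, 8.52 and 16.1 CPM without transfection, 3.95, 4.21, 3.04 and 8.53 CPM with the control ASO and 43.9, 49.6, 42.4 and 34.5 CPM with the mix (1.93 ± 0.26 over both steps, adjusted p = 4.49e-04). Every control ASO value of Epha2 was below its untransfected partner, but the genes of this paragraph were named for their opposed steps. Both steps hold the control ASO libraries, so noise in those libraries alone would push the steps in opposite directions. Rrm2, a subunit of ribonucleotide reductase, was at 5.21, 7.52, 6.27 and 7.87 CPM, 1.24, 1.60, 1.17 and 1.24 CPM and 2.55, 3.39, 2.84 and 2.92 CPM in the same order of groups (-1.19 ± 0.14, adjusted p = 7.45e-07). Sphk1, the sphingosine kinase gene, was at 12.5, 14.7, 12.6 and 16.4 CPM, 5.54, 7.70, 5.65 and 8.47 CPM and 13.9, 16.9, 13.4 and 11.1 CPM in the same order of groups and was not called between mix and untransfected cultures (-0.01 ± 0.12, adjusted p = 0.931). With the length and GC trend removed Sphk1 was called lower (-0.29). Its mix values lay above the untransfected ones in mice 1 to 3 and below in mouse 4. In the opposite order of steps, Sgsh, a lysosomal sulfatase gene, was at 13.4, 13.2, 13.7 and 14.5 CPM, 24.3, 19.7, 24.0 and 23.2 CPM and 12.1, 11.6, 13.7 and 16.3 CPM (-0.04 ± 0.09, adjusted p = 0.751), and the mix value of mouse 4 was above its untransfected value. Gpnmb rose by 1.10 with the control ASO and ended at -0.64 ± 0.21, marginal (adjusted p = 0.0219) with the mix, lower in 3 of 4 mice.

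**Figure D4:**
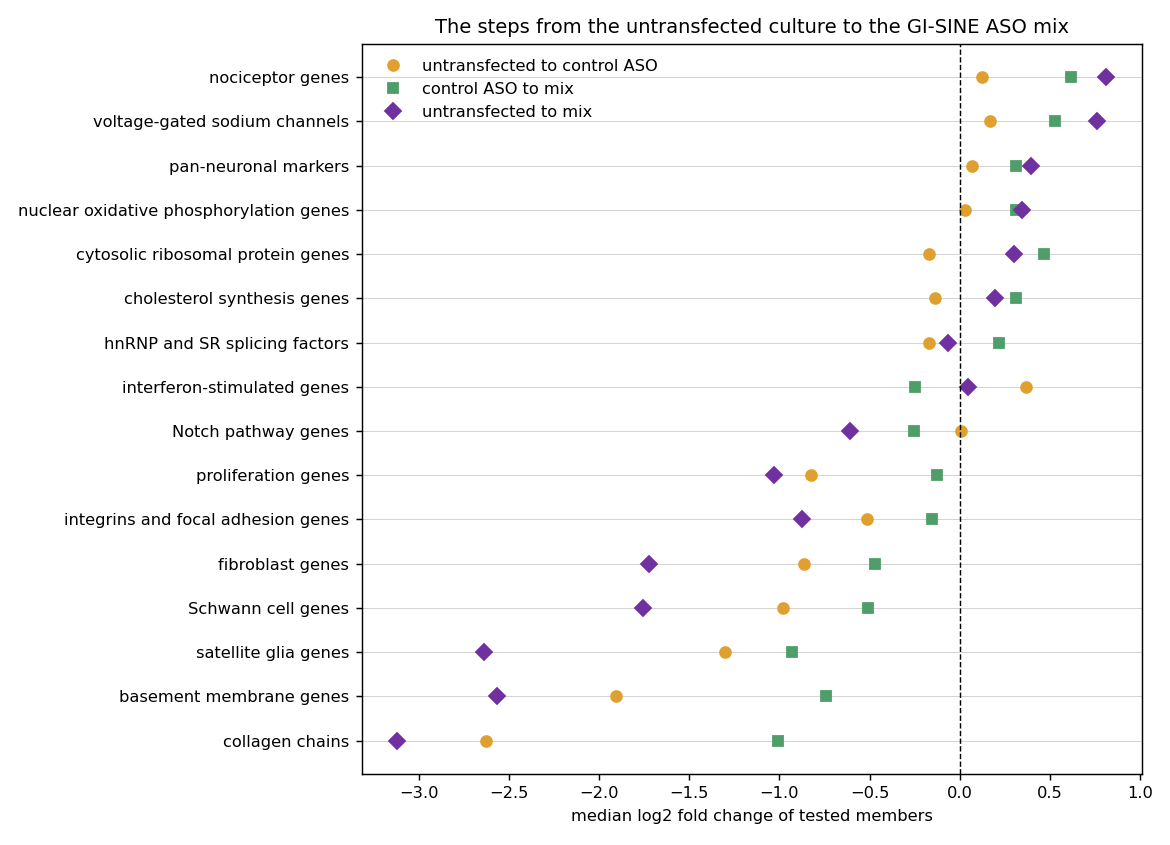
Median log2 fold change of the tested members of 16 gene lists from untransfected to control ASO (circles), from control ASO to GI-SINE ASO mix (squares) and from untransfected to mix (diamonds), with a dashed line at 0. Collagen chains and proliferation genes show most of their fall in the first step, and ribosomal protein and cholesterol synthesis genes a first step below 0 and the other step above it.

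Genes outside the protein-coding class differed in their balance. Of 353 tested antisense genes 172 were higher and 22 lower (median 0.57), and of 328 lincRNA genes 125 were higher and 37 lower (median 0.34), against 4199 higher and 4970 lower of 14058 protein-coding genes (median -0.06). The strand setting of the counting was not given in the sources used here. Reads of an antisense gene and its partner may therefore not have been told apart. With all tested genes in 5 equal bins of mean log2 CPM, the median was 0.12, -0.06, -0.10, -0.04 and 0.05 from lowest to highest. In the lowest bin 24.7% of genes were higher and 15.0% lower, so scarce genes leaned upward as well. The part of low level and of the low count filter in the balance of these classes was not tested. Of 22 tested long and structural noncoding RNAs 10 were higher and 1, Airn, was lower (median 0.27, and -0.13 in mouse 4). Snhg8, a small nucleolar RNA host gene, went from 3.28, 4.59, 4.02 and 5.09 CPM to 17.6, 16.9, 15.7 and 9.43 CPM (1.82 ± 0.28, adjusted p = 3.88e-04), with the smallest rise in mouse 4. Malat1, the nuclear RNA that was among the 5 most abundant entries of the untransfected culture, was at 3602, 4114, 4360.0 and 4546 CPM and 5190.0, 5110.0, 5123 and 3579 CPM (0.17 ± 0.20, adjusted p = 0.492), lower with the mix in mouse 4 and higher in the other mice. Of the other 4 entries, Map1b was not called (-0.13 ± 0.06, adjusted p = 0.0822, and -0.24 and lower without mouse 4), the ribosomal RNA loci Gm23935 (0.30 ± 0.05, and -1.06 after removal of the length and GC trend) and Gm42418 (0.34 ± 0.05) were higher and Gm26917 was lower (-0.24 ± 0.08, marginal).

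Across genes, the change went with base composition. With tested genes in 5 equal bins of transcript GC content, the median log2 fold change was -0.18, -0.12, -0.05, 0.07 and 0.23 from the lowest to the highest bin, and 18.4% of genes in the lowest and 47.5% in the highest bin were called higher. In 5 bins of transcript length it was 0.07, 0.03, 0.00, -0.07 and -0.14. With the control ASO against untransfected cultures the GC bins ran from -0.04 to 0.11. Genes are not independent replicates, and this is a description. After those trends were removed 9181 of the 10307 called genes kept their call and direction, and 18 were called in the opposite direction. The medians of the matrix and nociceptor lists were then -3.13 for collagens and 0.77 for nociceptor genes.

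**Figure D5:**
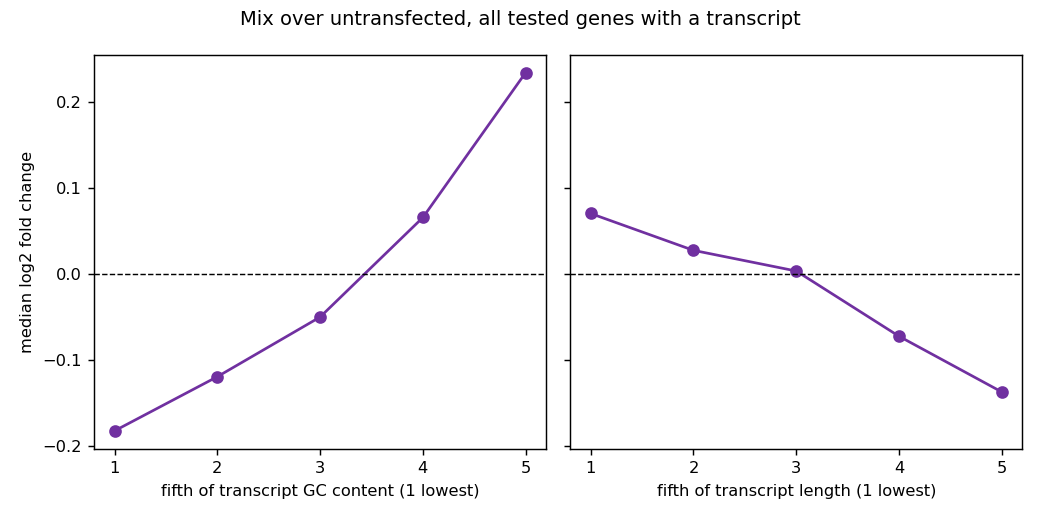
Median log2 fold change (mix over untransfected) of all tested genes with a known transcript, in 5 equal bins of transcript GC content (left) and transcript length (right), from lowest to highest. The median rises from -0.18 to 0.23 with GC content and goes from 0.07 to -0.14 with length.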

How the data were processed

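Gene counts were deposited by the authors as 1 table of whole numbers, not normalized, for 12 libraries. Per the labels' protocols, RNA was extracted with RNeasy Mini columns and libraries were made with the TruSeq Stranded kit and read as pairs of 150 bases on a NovaSeq. Builds GRCm38 and mm10 and the tools bcl2fastq 2.17, STAR and HTSeq stand in the submitters' processing notes. Annotation release and strand setting were not given in the sources used here.

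Counts were fitted with edgeR 4.0.16 (R 4.3.3): trimmed-mean scaling, filterByExpr by group, a robust quasi-likelihood fit of group and mouse over all 12 libraries, 2-sided tests and Benjamini-Hochberg adjustment over 16831 genes. The SE is the log2 fold change divided by the square root of its F statistic. The design text says that a replicate number is 1 mouse, so mouse is a block. Same-numbered mix and untransfected libraries had correlated deviations (0.16, 0.14, 0.23 and 0.37 across genes in mice 1 to 4). Mix and untransfected libraries of different mice ran from -0.26 to 0.16, so the pairs of mice 1 and 2 were not clearly set apart by this measure. No replicates agreed within sampling noise. The fit was tested on simulated data. Symbols, biotypes, lengths and GC content came from GENCODE vM21 (GRCm38), in which 360 of 48795 IDs, with at most 0.0308% of a library's counts, found no match, and promoters came from RefSeq (GRCm38.p6).

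The members of the comparison, the 46 gene lists and the tests were chosen with earlier results of these data known. Genes were named by rule: adjusted p under 0.05, mean log2 CPM of at least 2 over the 8 libraries and the same direction in 4 mice, then the 10 largest rises and falls, the 5 smallest p each way, the 5 largest changes each way at 100 CPM or more, and 4 genes of each order of opposed steps. From each list came up to 5 members of smallest p and up to 2 against its direction, without the level condition. The 5 most abundant genes were added. A few genes chosen in this way are not reported here. Lists were described by counts and medians, without a set test. DESeq2 1.42.0, limma 3.58.1, other scalings, filters and fits, each mouse left out, and a correction for trends in transcript length and GC content were tried as alternatives.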

Additional observations from a re-analysis of the deposited data

Results flagged for a closer look

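Of 232 groups of 4 libraries examined, 33 held 1 library whose gap to the nearest other, as a share of the range of the group, passed Dixon's 95% critical value, and chance gives about 1 in 20. The library was that of mouse 4 in 30 of the 33. With the mix, the library of mouse 4 had the lowest total count (16416459 against 20569662 to 21250125) and the lowest first principal component (25.9 against 64.4 to 72.3).

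Among the untransfected cultures, that of mouse 4 stood apart by this measure as the highest in 6 genes. It had 139 CPM of Lama2 against 57.0 to 64.8, 374 CPM of Col1a2 against 272 to 280.3, 55.9 CPM of Prx against 15.6 to 17.0, 15.4 CPM of Myl9 against 3.18 to 5.08, 37.3 CPM of Cdh5 against 6.57 to 10.8 and 67.8 CPM of Plk2 against 29.8 to 34.9. Its untransfected culture also held the highest share of counts in basement membrane genes (0.293% against 0.159% to 0.176%), contractile and mural cell genes (0.415% against 0.334% to 0.348%), TGF-beta and YAP genes (0.278% against 0.153% to 0.172%), endothelial genes (0.0365% against 0.00717% to 0.0102%) and p53 targets (0.167% against 0.129% to 0.132%). It was lowest in 2705 CPM of Dync1h1 against 3562 to 3706, and in the shares of pan-neuronal markers (0.894% against 1.12% to 1.15%), axon growth genes (2.14% against 2.68% to 2.73%) and glycolysis and hypoxia genes (0.602% against 0.682% to 0.696%).

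With the mix, mouse 4 was highest in 13.5 CPM of Col5a2 against 2.05 to 3.55, 25.1 CPM of Itgav against 11.4 to 12.8, 8.58 CPM of Cnn2 against 1.20 to 2.09, 3.41 CPM of Prx against 1.57 to 1.88, 1.10 CPM of Myl9 against 0.209 to 0.350, 3.83 CPM of Ptgs2 against 0.835 to 1.12 and 32.0 CPM of Cdh5 against 3.00 to 4.85. So were its shares of matrix enzyme genes (0.1247% against 0.107% to 0.108%) and endothelial genes (0.0308% against 0.00484% to 0.00665%). It was lowest in 511 CPM of Syp against 696 to 718, 1700.0 CPM of Uchl1 against 2181 to 2233, 3579 CPM of Malat1 against 5110.0 to 5190.0, and in the share of glycolysis and hypoxia genes (0.718% against 0.805% to 0.814%). Other mix libraries that stood apart were that of mouse 3 with 675 CPM of Cdkn1a against 719.8 to 729, that of mouse 2 with 14.2 CPM of Lif against 9.35 to 10.04, and that of mouse 1 with 119 CPM of Map2 against 94.4 to 96.6. The part of the makeup of the culture of mouse 4 in its smaller median change over called genes was not tested.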

How the results depend on the processing

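The count for mix against untransfected cultures stayed within 1.5 times of 10307 under every other tool, scaling and filter tried, and of the genes called, 8649 to 10269 kept call and direction under those settings and with each mouse left out. Requiring a fold change of at least 1.5, by construction, left 4643 genes, 2442 higher and 2201 lower, with 1379 for control ASO against untransfected cultures, 3490 for mix against control ASO and 1076 off the midpoint. The stricter low count filter, which tests fewer genes, left 548 genes at least 2-fold higher and 686 lower, and medians of -0.15 for macrophage genes (from -0.83) and -0.68 for proliferation genes (from -1.03). Without the replicate block the comparison gave 9179 genes, control ASO against untransfected cultures 2391 and the midpoint test 3472, and 21 named genes lost their call. Leaving out each mouse in turn gave 8857 to 10770 genes for the comparison, 2540 to 3946 for control ASO against untransfected cultures and 3150 to 6748 off the midpoint. Of 186 called genes named above, 18 lost their call without 1 mouse, at adjusted p of 0.0511 to 0.269 (edgeR quasi-likelihood).

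With libraries scaled by their totals only, the median of all genes was -0.10, the share of higher genes among those called went from 49.2% to 40.8%, and the medians of axon growth (-0.02), interferon-stimulated (-0.04) and neuregulin genes (-0.04) changed sign. Under this scaling Apoe, Ccne2, Drp2, Srf, Tgfb3, Zyx and mt-Co1 lost their call, and Dcn, Map1b, Pdgfra, Scn10a and Tubb3 were called lower. DESeq2 did not call Dll1, Dll3 or Ndufs4. With the replicate block and the length and GC trend removed, Apoe (-0.021), Srf (-0.035), Zyx (-0.050) and Gm23935 (-1.06) changed sign, as did the median of the integrated stress response list (-0.01), 10 other named genes lost their call and 3 (Scn9a, Sphk1 and Tubb3) gained one. The median of mitochondrially encoded genes was 0.08 without mouse 4, 0.05 without mouse 2, 0.09 under the stricter filter and 0.02 without the replicate block, and that of apoptosis genes was 0.09 under the stricter filter. The causes were not tested. Depth limits the scarce genes: falls to under 1 CPM rest on about 20 counts or fewer per library.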
